A study of Mus musculus with 6 samples.

Results

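The genes described here are the 10 that make and assemble the MHC class I ligand: the classical heavy chains H2-K1 and H2-D1, their light chain B2m, the peptide transporter Tap1 and Tap2, the loading factor Tapbp, the immunoproteasome subunits Psmb8, Psmb9 and Psmb10, and the class I transactivator Nlrc5. They were chosen by name for their role in the pathway, without a rule on measured values, but with earlier results of these data known. They are 10 of the 23420 genes in the count files. Read counts came from dendritic cells (DCs) of the thymus of wild-type mice, sorted by flow cytometry into 3 groups of 2 libraries. YG+ pDCs were plasmacytoid DCs (CD11c low, B220+) that held yellow-green fluorescent microspheres, taken from mice with subcutaneous MC38 tumours, a mouse colon carcinoma line. The microspheres had been injected into the tumour 12 days into its growth, and the cells were isolated 2 days later. PBS pDCs had the same CD11c low, B220+ gate, and PBS Sirpa+ DCs were CD11c high and Sirpa+, a conventional DC gate. Both PBS groups came from mice that received PBS, and the labels do not say whether those mice carried tumours. Injected material, microsphere gate and tumour therefore cannot be told apart between YG+ pDCs and PBS pDCs. Age and strain are not given. The labels do not tell whether replicate libraries stem from different animals. The p-values therefore describe how far these particular samples spread, and that spread may be technical.

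MHC class I molecules show short peptides from a cell's own proteins to CD8+ T cells. The proteasome cuts proteins into peptides, and in immune cells Psmb8, Psmb9 and Psmb10 replace the constitutive catalytic subunits Psmb5, Psmb6 and Psmb7 to form the immunoproteasome. The Tap1-Tap2 transporter carries peptides into the endoplasmic reticulum, where tapasin, the product of Tapbp, holds the empty heavy chain and B2m close to the transporter until a peptide binds. Nlrc5 and interferon-induced factors act on class I promoters. In the thymus, DCs present peptides on class I to developing thymocytes, and Sirpa+ DCs and pDCs are the thymic DC types known to arrive from the periphery.

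Gene totals ran from 177844 to 713966 counts per library, which is 0.842% to 3.36% of the uniquely placed reads, and both lowest values belonged to PBS pDC replicate 1. Levels are in CPM, each count scaled to the TMM-adjusted total of the 8141 genes that passed the filter. On that scale 3 counts in a library, about the 95% upper bound for an observed count of 0, equalled 4.21 to 19.1 CPM. Levels of Siglech, Itgax and Sirpa ran in the direction of the gates, but not all passed the test. The pDC lectin Siglech averaged 824 ± 218 CPM for YG+ pDCs and 993 ± 92.6 for PBS pDCs (SD, n = 2 each). For PBS Sirpa+ DCs it averaged 45.2 ± 1.90 CPM (SD, n = 2). Itgax, which encodes CD11c, averaged 221 CPM for YG+ pDCs, 213 for PBS pDCs and 524 for PBS Sirpa+ DCs. Sirpa averaged 349, 259 and 662 CPM in the same order. Against PBS Sirpa+ DCs, the edgeR adjusted p of Itgax was 0.119 for YG+ pDCs and 0.0988 for PBS pDCs. That of Sirpa was 0.226 and 0.0754. Ptprc, the gene of the B220 antigen, had 816 and 981 CPM in YG+ pDCs, 185 and 1011 in PBS pDCs, and 237 and 512 in PBS Sirpa+ DCs. For Ptprc, PBS pDC replicate 1 thus lay below both PBS Sirpa+ DC libraries, against the direction of the gate. The 8 B cell markers summed to 853 and 734 CPM in YG+ pDCs and 810 and 956 in PBS pDCs. In PBS Sirpa+ DCs they summed to 16.9 and 17.9. Whether B cells entered the B220+ gate was not tested. Across genes, replicates correlated at r = 0.934 for YG+ pDCs, 0.726 for PBS pDCs and 0.855 for PBS Sirpa+ DCs, so PBS pDC replicate 1 stood apart, and results that rest on it are given with and without it. Where a library is left out, the lone library of its group is assumed to vary like those of the other groups. In sorted bulk cells, fewer expressing cells and less RNA per cell cannot be told apart. No source used here gives the strand setting of the counts, and reads of Tsix, the antisense partner of Xist, exceeded those of Xist by a factor of 2.70 to 20.5, while 97.7% to 99.5% of all records lay outside the gene counts. Whether reads were counted on the strand opposite to the transcript was not tested, so a gene's level may be that of reads antisense to it.

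Of the 10 genes, 7 lie on chromosome 17 in or beside the MHC, by GENCODE M21 on GRCm38. Tapbp (33915899-33929292, plus strand) and H2-K1 (33996017-34000347, minus strand) come first along the chromosome. The processing genes follow as a tight block of Psmb9 (34181987-34187764, minus), Tap1 (34187553-34197225, plus), Psmb8 (34197721-34201454, plus) and Tap2 (34203527-34216321, plus). Psmb9 and Tap1 point away from each other and overlap by 212 bases at their starts, 495 bases separate Tap1 from Psmb8, and 2072 bases separate Psmb8 from Tap2. H2-D1 (35262730-35267499, plus) lies further along. B2m is on chromosome 2 (122147686-122153083, plus), and Psmb10 (105935735-105938444, minus) and Nlrc5 (94434356-94527272, plus) are on chromosome 8. H2-K1, H2-D1, B2m and Psmb10 have no exon base opposite another gene, whereas 24.9% of the exon length of Tapbp, 18.5% of Tap2, 14.7% of Psmb8, 5.79% of Psmb9, 3.87% of Tap1 and 0.918% of Nlrc5 lie opposite an exon on the other strand. The 2 heavy chains also share sequence with relatives: 8.79% of the 50-base windows of H2-K1 and 14.3% of those of H2-D1 occur in transcripts of other genes, H2-Q1 among both, so their counts are uncertain to that extent. The share was highest for Tapbp (21.02%), and it was 12.6% for Tap2, 12.5% for Psmb9, 6.47% for Tap1 and 5.83% for Psmb8, most of which have neighbours that overlap them. B2m, Psmb10 and Nlrc5 have no shared window.

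The promoters of the heavy chains, B2m and Tap1 are shown because class I promoters are known for a shared module read by Nlrc5 together with factors bound to CCAAT and to cAMP response elements. RefSeq windows (GRCm38.p6, 250 bases before to 50 after the start) existed here for 8 of the 10 genes, Tap2 and Nlrc5 being those without. The windows are chr17:34000298-34000597 (minus strand) for H2-K1, the second of its 2 windows, chr17:35262844-35263143 (plus) for H2-D1, chr2:122147437-122147736 (plus) for B2m and chr17:34187306-34187605 (plus) for Tap1. Capitals mark matches, on either strand, to CCAAT, to TGACG, to the interferon-stimulated response element (GAAA, any 2 bases, GAAA) and to the NF-kB consensus.
H2-K1: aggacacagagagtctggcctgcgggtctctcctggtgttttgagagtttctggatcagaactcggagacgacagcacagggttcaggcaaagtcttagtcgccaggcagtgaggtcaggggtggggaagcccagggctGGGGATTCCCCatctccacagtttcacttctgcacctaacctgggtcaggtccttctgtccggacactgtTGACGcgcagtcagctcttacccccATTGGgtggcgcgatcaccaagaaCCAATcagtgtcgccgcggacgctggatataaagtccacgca
H2-D1: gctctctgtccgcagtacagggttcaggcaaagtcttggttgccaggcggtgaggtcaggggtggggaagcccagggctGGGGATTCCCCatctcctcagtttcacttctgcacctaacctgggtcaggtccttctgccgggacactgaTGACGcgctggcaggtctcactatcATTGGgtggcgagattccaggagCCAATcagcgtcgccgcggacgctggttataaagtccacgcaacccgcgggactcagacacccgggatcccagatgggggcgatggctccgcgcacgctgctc
B2m: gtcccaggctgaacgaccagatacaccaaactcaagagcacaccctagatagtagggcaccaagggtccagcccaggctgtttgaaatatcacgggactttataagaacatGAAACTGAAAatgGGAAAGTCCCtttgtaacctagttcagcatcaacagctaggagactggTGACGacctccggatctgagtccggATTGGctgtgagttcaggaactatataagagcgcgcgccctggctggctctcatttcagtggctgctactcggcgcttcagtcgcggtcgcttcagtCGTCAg
Tap1: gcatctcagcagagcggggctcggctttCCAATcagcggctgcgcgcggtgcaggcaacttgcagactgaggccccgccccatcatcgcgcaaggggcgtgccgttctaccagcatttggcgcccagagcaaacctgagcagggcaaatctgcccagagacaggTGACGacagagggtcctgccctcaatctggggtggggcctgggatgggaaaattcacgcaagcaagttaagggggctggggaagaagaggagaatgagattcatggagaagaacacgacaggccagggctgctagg
The windows of H2-K1 and H2-D1 hold the same matches in the same order, an NF-kB match, then TGACG, then CCAAT on the minus strand and CCAAT on the plus strand. The NF-kB capitals of the heavy chains are a pair of overlapping matches, and no other printed matches overlap. CCAAT occurred in 6 of the 8 genes with a window (H2-K1, H2-D1, B2m, Tap1, Tapbp and Psmb9), against 37.4% of all 32851 mouse windows. TGACG occurred in 5 of 8 (H2-K1, H2-D1, B2m, Tap1 and Psmb9), against 20.8% of windows. The window of Psmb9 shares 275 bases with that of Tap1, so those are largely 1 sequence. The NF-kB consensus occurred in H2-K1, H2-D1 and B2m (4.51% of windows). The searched letters GAAA, any 2 bases, GAAA occurred only in B2m among the 8 (3.44% of windows). Other forms of the interferon-stimulated response element were not searched, so the other windows may hold one. The interferon gamma element TTCNNNGAA occurred only in Psmb8 (8.30% of windows). A match is a description of letters in the window and does not show that a factor bound there.

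All 10 genes were read in all 6 libraries and passed the filter on low counts. Their summed level was 5843 and 5999.6 CPM in YG+ pDCs, 5307 and 5454 in PBS pDCs, and 5763 and 7114 in PBS Sirpa+ DCs. B2m and H2-K1 made up most of that sum in every library. Levels were also compared per kilobase of exon, with the exons of all annotated transcripts of a gene joined. The order by the mean over libraries was B2m, H2-K1, H2-D1, Tapbp, Psmb10, Psmb8, Tap1, Nlrc5, Tap2 and Psmb9. The joined length was 3660 bases for Psmb9 and 3381 for Psmb8, against 1352 and 1628 for the longest coding transcript of each. For H2-K1 it was 2938 bases against 1619, while B2m had 860 by both. The separation of B2m from H2-K1 and the order below H2-D1, with Psmb9 last, therefore depend on the length used. On joined length, the ranges of B2m and H2-K1, of H2-K1 and H2-D1, and of H2-D1 and Tapbp did not overlap over the 6 libraries. Every later neighbour in the order overlapped the next. B2m stood at 2461 and 2426 CPM per kilobase in YG+ pDCs, 1394 and 1585 in PBS pDCs, and 1978 and 3215 in PBS Sirpa+ DCs. Psmb9 stood at 20.3 and 18.6 CPM per kilobase in YG+ pDCs, 17.4 and 25.3 in PBS pDCs, and 23.1 and 25.6 in PBS Sirpa+ DCs.

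**Figure D1:**
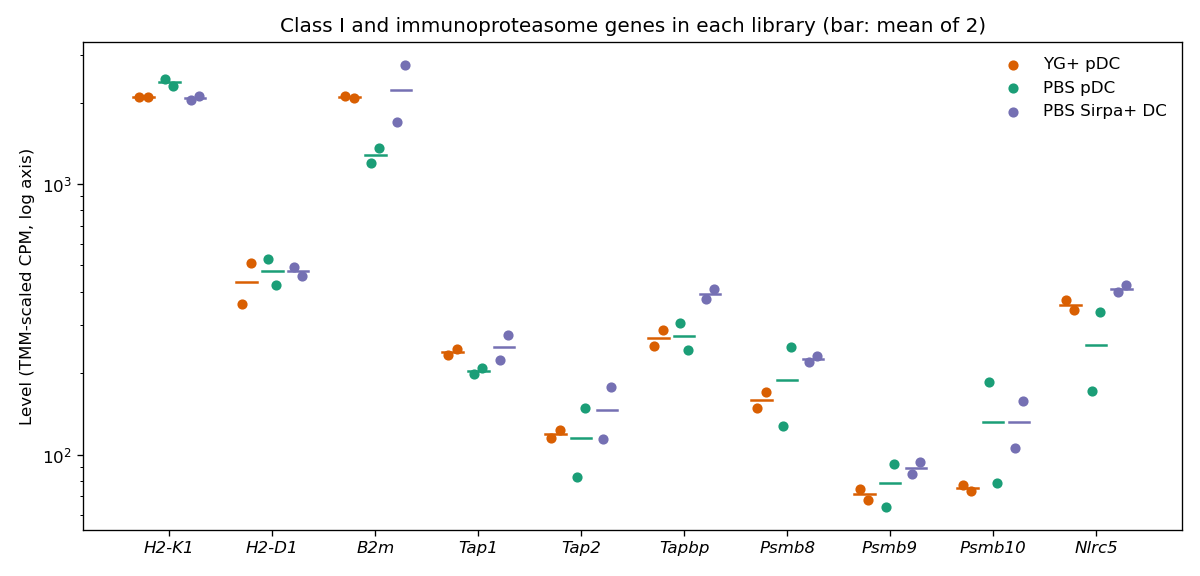
Level of each of the 10 genes in CPM on a log axis, 1 dot per library, with a bar at the mean of the 2 libraries of each group (YG+ pDCs, then PBS pDCs, then PBS Sirpa+ DCs). The heavy chain H2-K1 and its light chain B2m sit at or above 1199 CPM in every library, and the replicates of PBS pDCs lie widest apart for Psmb10, Nlrc5 and Psmb8.

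None of the 10 genes passed the test in any comparison (edgeR's quasi-likelihood test, Benjamini-Hochberg adjusted p under 0.05 over 8141 genes). Between YG+ pDCs and PBS pDCs 0 of 10 were called, and 0% of all genes tested were called. That comparison had 929 genes with an unadjusted p under 0.05, while DESeq2 called 111 genes and limma-voom 0. In PBS pDCs over PBS Sirpa+ DCs 0 of 10 were called against 11.4% of all genes, 4.54% higher and 6.89% lower. In YG+ pDCs over PBS Sirpa+ DCs 0 of 10 were called against 7.16% of all genes, 3.07% higher and 4.09% lower. With an unadjusted p under 0.05 there were also 0 of 10 in each comparison by edgeR, where PBS pDCs over PBS Sirpa+ DCs had 1950 such genes of 8141 and YG+ pDCs over PBS Sirpa+ DCs 1857. DESeq2 and limma-voom also called 0 of 10 in each, although DESeq2 gave no adjusted p for Psmb9 and Psmb10 between the pDC groups. The median size of their fitted log2 fold changes was 0.21 for YG+ pDCs over PBS pDCs, against 0.50 for all genes tested. It was 0.26 against 0.68 for PBS pDCs over PBS Sirpa+ DCs, and 0.25 against 0.65 for YG+ pDCs over PBS Sirpa+ DCs. All genes tested were not matched to the 10 for level here, and the part of read depth in that difference was not tested. The replicates of the 10 genes also lay close together. The median difference between replicates on the log2 scale was 0.11 for the 10 genes in YG+ pDCs (0.23 for 2648 genes of like level), 0.42 within PBS pDCs (0.75 for genes of like level) and 0.13 within PBS Sirpa+ DCs (0.43 for genes of like level).

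The absence of a call does not show equal levels. The 95% interval of the log2 fold change lay wholly within a 2-fold change in either direction for 2 of the 10 genes in YG+ pDCs over PBS pDCs, for 1 in PBS pDCs over PBS Sirpa+ DCs and for 2 in YG+ pDCs over PBS Sirpa+ DCs. The groups did not overlap for 5 of 10 genes in YG+ pDCs over PBS pDCs, 3 higher and 2 lower, where 45.8% of all genes did not (26.5% higher, 19.3% lower). They did not overlap for 5 of 10 in PBS pDCs over PBS Sirpa+ DCs, 1 higher and 4 lower, against 47.1% of all genes (22.9% higher, 24.2% lower). The count was 5 of 10 in YG+ pDCs over PBS Sirpa+ DCs, all lower, against 62.0% of all genes (32.8% higher, 29.1% lower). The totals are near or below the background. The median log2 fold change of the 10 genes was -0.07 for YG+ pDCs over PBS pDCs (0.08 over all genes), -0.26 for PBS pDCs over PBS Sirpa+ DCs (0.08 over all genes) and -0.25 for YG+ pDCs over PBS Sirpa+ DCs (0.04 over all genes). The comparisons share libraries, so these values are not independent of each other.

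**Figure D2:**
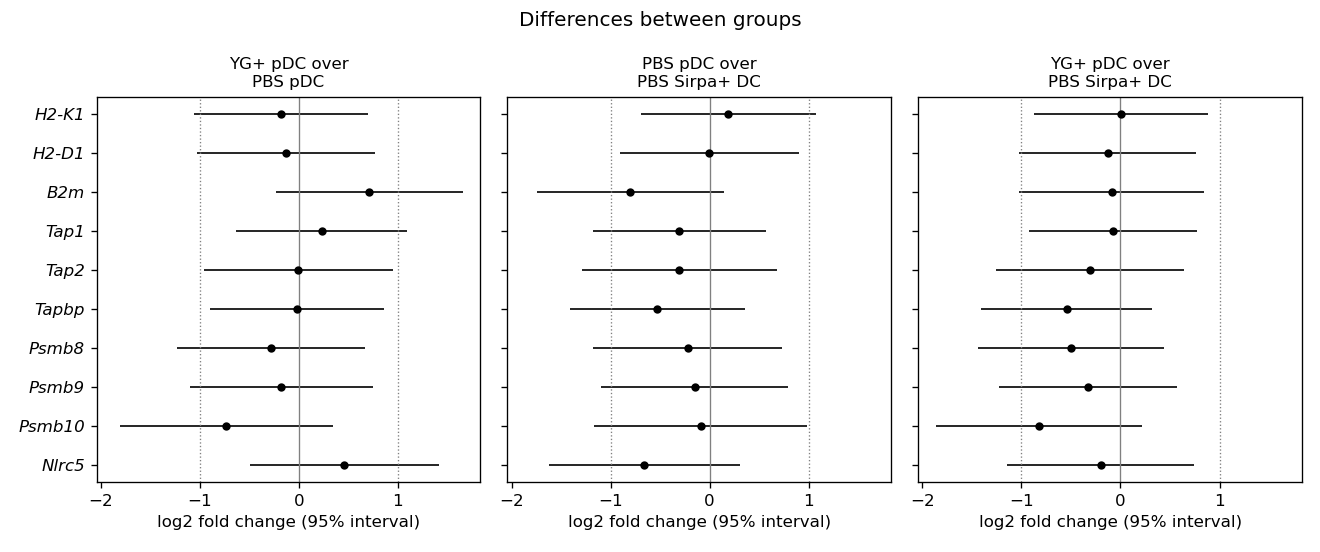
Log2 fold change of each of the 10 genes with its 95% interval, in 3 panels that show YG+ pDCs over PBS pDCs, PBS pDCs over PBS Sirpa+ DCs and YG+ pDCs over PBS Sirpa+ DCs, with dotted lines at a 2-fold change. Every interval crosses 0, and the point estimates run from -0.82 for Psmb10 to 0.71 for B2m.

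The heavy chains showed no called difference between the 3 groups. H2-K1, one of the classical chains that present peptide to CD8+ T cells, had 2094 and 2092 CPM in YG+ pDCs, 2443 and 2309 in PBS pDCs, and 2044 and 2123 in PBS Sirpa+ DCs. Both YG+ pDC libraries lay below both PBS pDC libraries, by a margin that came to a log2 fold change of -0.18 (SE 0.40, 95% interval -1.06 to 0.70, edgeR adjusted p = 0.902). PBS pDCs lay above PBS Sirpa+ DCs by 0.19 (SE 0.40, interval -0.69 to 1.07, edgeR adjusted p = 0.830). H2-D1, the other classical chain, was lower throughout, at 359.6 and 510.0 CPM in YG+ pDCs, 529 and 423 in PBS pDCs, and 495 and 457 in PBS Sirpa+ DCs. Its groups overlapped in every comparison. The mean was 476 CPM in PBS pDCs and also 476 CPM in PBS Sirpa+ DCs, with an interval of the log2 fold change from -0.91 to 0.90. Within a library, H2-K1 had 5.82 and 4.10 times the reads of H2-D1 in YG+ pDCs, 4.61 and 5.45 times in PBS pDCs, and 4.13 and 4.65 times in PBS Sirpa+ DCs.

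B2m, the light chain that pairs with the classical class I heavy chains, had the highest point estimate of the 10 for YG+ pDCs over PBS pDCs. It had 2117 and 2086 CPM in YG+ pDCs, 1199 and 1363 in PBS pDCs, and 1701 and 2765 in PBS Sirpa+ DCs. The PBS pDC libraries were the lowest of the 6, and the YG+ pDC libraries lay between the PBS Sirpa+ DC replicates. The log2 fold change was 0.71 for YG+ pDCs over PBS pDCs (SE 0.43, interval -0.23 to 1.66, edgeR adjusted p = 0.566) and -0.80 for PBS pDCs over PBS Sirpa+ DCs (SE 0.43, interval -1.75 to 0.14, edgeR adjusted p = 0.292). Neither passed the test. Without PBS pDC replicate 1 they were 0.62 and -0.71, and without PBS pDC replicate 2 they were 0.85 and -0.95. The second value moved more with the PBS Sirpa+ DC libraries, to -1.12 without their replicate 1 and -0.37 without their replicate 2. The value for YG+ pDCs over PBS Sirpa+ DCs was -0.09 (interval -1.02 to 0.85).

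The ratio of B2m to H2-K1 reads needs no scaling between libraries. It was 1.01 and 0.997 in YG+ pDCs, 0.491 and 0.590 in PBS pDCs, and 0.832 and 1.30 in PBS Sirpa+ DCs. B2m thus gave about as many reads as H2-K1 in YG+ pDCs and fewer in both PBS pDC libraries. This ratio was picked after the values were seen and carries no test. Markers of other cells differed between the same libraries: the summed level of 9 macrophage markers (of 10 listed, with Mertk and Fcgr1 at 0 in PBS pDCs) was 4314 and 1768 CPM in YG+ pDCs, 1021 and 745 in PBS pDCs, and 5996 and 9991 in PBS Sirpa+ DCs. The sum of 10 mature DC markers (Anxa3 and Ccl17 at 0 in PBS pDCs) was 2010.0 and 1593 CPM in YG+ pDCs, 772 and 696 in PBS pDCs, and 6880.3 and 5608 in PBS Sirpa+ DCs. As with B2m, PBS pDCs were the lowest on both lists, and also for cDC1, cDC2 and thymic epithelium markers. Other lists ordered the groups differently. B cell markers summed to 853 and 734 CPM in YG+ pDCs, 810 and 956 in PBS pDCs, and 16.9 and 17.9 in PBS Sirpa+ DCs. T cell and thymocyte markers, with Cd3g and Ptcra at 0 throughout, summed to 563 and 705, 568 and 611, and 161 and 163 in that order. The part of any of these cells in the B2m values was not tested.

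**Figure D3:**
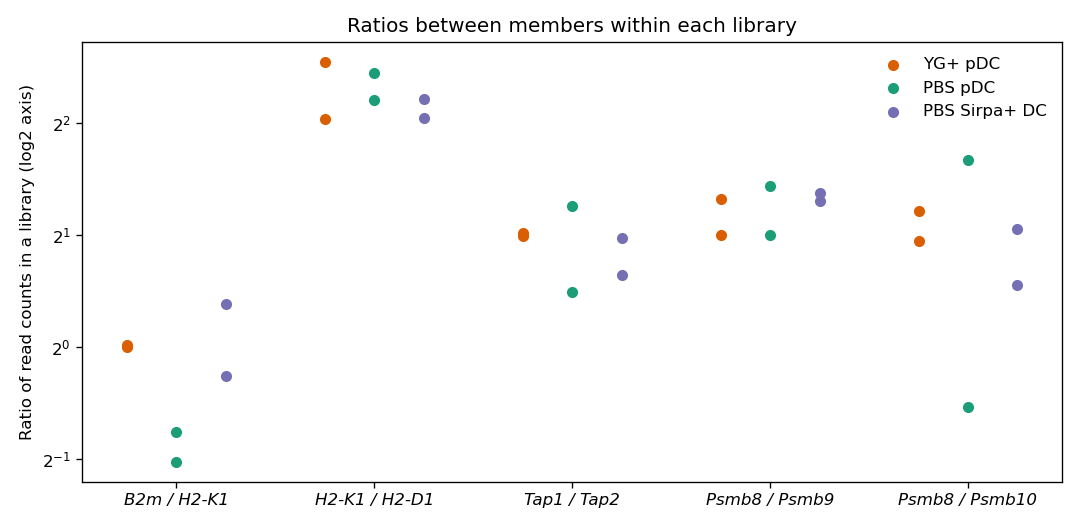
Ratios of read counts within each library on a log2 axis, 1 dot per library, for B2m over H2-K1, H2-K1 over H2-D1, Tap1 over Tap2, Psmb8 over Psmb9 and Psmb8 over Psmb10, with the groups in the order YG+ pDCs, then PBS pDCs, then PBS Sirpa+ DCs. B2m over H2-K1 is lowest in the PBS pDC libraries (0.491 and 0.590), and Psmb8 over Psmb10 is 0.690 in PBS pDC replicate 1 against 3.18 in PBS pDC replicate 2.

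Tap1 and Tap2 encode the subunits of the peptide transporter and lie within the same block of chromosome 17. Tap1 had 233 and 245 CPM in YG+ pDCs, 198 and 208 in PBS pDCs, and 224 and 277 in PBS Sirpa+ DCs. The PBS pDC libraries were again the lowest, with a log2 fold change of 0.23 for YG+ pDCs over PBS pDCs (interval -0.63 to 1.10, edgeR adjusted p = 0.862) and -0.31 for PBS pDCs over PBS Sirpa+ DCs (interval -1.18 to 0.56, edgeR adjusted p = 0.708). Tap2 had 115 and 123 CPM in YG+ pDCs, 82.9 and 148 in PBS pDCs, and 114 and 177 in PBS Sirpa+ DCs. The lower PBS pDC value of Tap2 rests on 13 reads in replicate 1, and the groups overlapped in every comparison. Tap1 gave 2.02 and 1.99 times the reads of Tap2 in YG+ pDCs, 2.38 and 1.41 times in PBS pDCs, and 1.96 and 1.56 times in PBS Sirpa+ DCs.

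Tapbp encodes tapasin, which bridges the transporter and the empty class I molecule. It had 251 and 288 CPM in YG+ pDCs, 306 and 243 in PBS pDCs, and 377 and 409 in PBS Sirpa+ DCs. All 4 pDC libraries lay below both PBS Sirpa+ DC libraries. The log2 fold change was -0.54 for YG+ pDCs over PBS Sirpa+ DCs (SE 0.39, interval -1.41 to 0.32, edgeR adjusted p = 0.450) and -0.53 for PBS pDCs over PBS Sirpa+ DCs (SE 0.40, interval -1.41 to 0.35, edgeR adjusted p = 0.482). Between YG+ pDCs and PBS pDCs it was -0.02 (interval -0.89 to 0.86). Without known strand, reads of Tapbp and of Gm19412, which lies opposite it, cannot be told apart.

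Of the immunoproteasome subunits, Psmb8 (the chymotrypsin-like subunit) had 149 and 170.0 CPM in YG+ pDCs, 128 and 249.9 in PBS pDCs, and 220.0 and 231 in PBS Sirpa+ DCs. Psmb9, which replaces Psmb6, had 74.4 and 68.0 CPM in YG+ pDCs, 63.8 and 92.6 in PBS pDCs, and 84.6 and 93.7 in PBS Sirpa+ DCs. For both genes the YG+ pDC libraries lay below the PBS Sirpa+ DC libraries, and the PBS pDC replicates lay on either side of the YG+ pDCs. The log2 fold change for YG+ pDCs over PBS Sirpa+ DCs was -0.50 for Psmb8 (interval -1.44 to 0.44, edgeR adjusted p = 0.527) and -0.33 for Psmb9 (interval -1.23 to 0.57, edgeR adjusted p = 0.679). Between YG+ pDCs and PBS pDCs the log2 fold change of Psmb8 was -0.28, and it was -0.66 without PBS pDC replicate 1 and 0.36 without replicate 2. That of Psmb9 was -0.18, and it was -0.38 without PBS pDC replicate 1 and 0.20 without replicate 2, so which PBS pDC library was used set the sign of both. Psmb8 gave 2.00 and 2.50 times the reads of Psmb9 in YG+ pDCs, 2.00 and 2.70 times in PBS pDCs, and 2.60 and 2.47 times in PBS Sirpa+ DCs.

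Psmb10, which replaces Psmb7 and lies on chromosome 8 apart from Psmb8 and Psmb9, was spread most within PBS pDCs. It had 77.3 and 73.4 CPM in YG+ pDCs, 185 and 78.7 in PBS pDCs, and 106 and 158 in PBS Sirpa+ DCs. Replicate 1 of PBS pDCs, at 29 reads, was 2.35-fold above replicate 2. The log2 fold change was -0.73 for YG+ pDCs over PBS pDCs (SE 0.49, interval -1.81 to 0.35, edgeR adjusted p = 0.614), -0.07 without PBS pDC replicate 1 and -1.25 without PBS pDC replicate 2 (edgeR adjusted p = 0.0902). In YG+ pDCs over PBS Sirpa+ DCs it was -0.82 (SE 0.48, interval -1.87 to 0.22, edgeR adjusted p = 0.338). The level of PBS pDC replicate 1 does not enter there but its spread enters the shared estimate, and without that library the value was -0.84 (SE 0.35, edgeR adjusted p = 0.115). Both YG+ pDC libraries lay below both PBS Sirpa+ DC libraries there.

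The immunoproteasome subunits were set against the constitutive subunits they replace, as log2 ratios of reads within a library with a pseudocount of 1. Psmb8 over Psmb5 was 4.16 and 3.42 in YG+ pDCs, 3.39 and 4.18 in PBS pDCs, and 3.41 and 3.06 in PBS Sirpa+ DCs, with only 1 to 13 reads of Psmb5 per library. Psmb9 over Psmb6 was 0.23 and 0.16 in YG+ pDCs, 0.87 and 0.45 in PBS pDCs, and -0.61 and -0.09 in PBS Sirpa+ DCs. Psmb10 over Psmb7 was -0.03 and -0.13 in YG+ pDCs, 0.26 and 0.22 in PBS pDCs, and 0.24 and 0.44 in PBS Sirpa+ DCs. The 3 pairs thus ordered the groups in different ways. For Psmb9 over Psmb6 both PBS pDC libraries were above the other 4. The difference was -0.47 for YG+ pDCs minus PBS pDCs and 1.01 for PBS pDCs minus PBS Sirpa+ DCs. PBS pDC replicate 1 had only 10 reads of Psmb9 and 5 of Psmb6. With a library left out these differences ran from -0.68 to -0.26 and from 0.75 to 1.27. Psmb6 had 63.2 and 60.8 CPM in YG+ pDCs, 31.9 and 67.1 in PBS pDCs, and 131 and 99.7 in PBS Sirpa+ DCs. For PBS pDCs over PBS Sirpa+ DCs the log2 fold change was -1.09 for Psmb6 (edgeR adjusted p = 0.185) and -0.15 for Psmb9 (edgeR adjusted p = 0.878). The higher ratio in PBS pDCs there thus went with lower Psmb6, not with higher Psmb9. Psmb10 over Psmb7 differed by -0.32 for YG+ pDCs minus PBS pDCs. With all libraries, an exact two-sided permutation test of 2 against 2 libraries gave p = 0.333 for each of these 3 ratio differences. That is the smallest p that this design allows, and it was 0.667 after Benjamini-Hochberg adjustment over the 6 differences tested (3 pairs in 2 comparisons).

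Nlrc5 encodes the transactivator of class I genes. It had 372 and 344 CPM in YG+ pDCs, 172 and 338 in PBS pDCs, and 398 and 423 in PBS Sirpa+ DCs. PBS Sirpa+ DCs were the highest and PBS pDCs the lowest, with no overlap between any of the groups, although replicate 2 of PBS pDCs, at 146 reads, came close to the YG+ pDCs. The log2 fold change was 0.46 for YG+ pDCs over PBS pDCs (SE 0.44, interval -0.50 to 1.42, edgeR adjusted p = 0.738) and -0.66 for PBS pDCs over PBS Sirpa+ DCs (SE 0.44, interval -1.62 to 0.31, edgeR adjusted p = 0.416). Both rested on PBS pDC replicate 1, whose 27 reads gave the low value: without it they were 0.07 and -0.27, and without replicate 2 they were 1.09 (edgeR adjusted p = 0.131) and -1.30 (edgeR adjusted p = 0.0641). The value for YG+ pDCs over PBS Sirpa+ DCs was -0.20 (interval -1.14 to 0.75).

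Across the 6 libraries the 10 genes did not all vary together. As a description, the log2 CPM of each gene was correlated with the mean of the other 9 over the 6 libraries, which fall into 3 groups and differ in depth. The value was positive for Tap1 (r = 0.76), Tap2 (0.73), Psmb9 (0.68), Tapbp (0.66), Psmb8 (0.58), B2m (0.55) and Nlrc5 (0.50). It was negative for Psmb10 (-0.07), H2-D1 (-0.09) and H2-K1 (-0.52). With 6 libraries such values are loose and were not tested, and H2-K1 ranged only 1.20-fold over the libraries. The mean centred pattern of the 10 genes was -0.12 and -0.05 in YG+ pDCs, -0.19 and -0.04 in PBS pDCs, and 0.07 and 0.32 in PBS Sirpa+ DCs, highest in PBS Sirpa+ DC replicate 2. The genes whose log2 CPM was most like that pattern over the 6 libraries, among 7618 candidates, were Esyt1 (r = 0.994), Lamtor1 (0.984), Hsd17b4 (0.979), Ndst2 (0.973) and Rab5c (0.971). With so many candidates and 6 libraries, high values of r are found for some genes in any case.

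The wider class I pathway was covered by 121 other genes in 9 lists, of which 97 passed the filter. Between YG+ pDCs and PBS pDCs 0 of the 97 were called by edgeR, and 1, Rfxank, by DESeq2. For PBS pDCs over PBS Sirpa+ DCs, 6 of the 97 were called (6.19%, against 11.4% of all genes), 1 higher and 5 lower. In YG+ pDCs over PBS Sirpa+ DCs, 3 of the 97 were called (3.09%, against 7.16% of all genes), 1 higher and 2 lower. None of the 13 tested genes of peptide loading and trimming in the endoplasmic reticulum was called in either of these, nor any of the 5 other beta subunits, the 7 alpha subunits, the 6 activators and assembly factors or the 19 subunits of the 19S regulator. The median log2 fold change for PBS pDCs over PBS Sirpa+ DCs was -0.24 over the 97 genes.

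H2-M2, a nonclassical class I heavy chain gene (chromosome 17, 37480851-37483552), was the member of these lists that differed most. It had 29.5 and 28.6 CPM in YG+ pDCs, 12.8 and 2.31 in PBS pDCs, and 309 and 395 in PBS Sirpa+ DCs. PBS pDCs had 3 reads in all, which made the level 72.1-fold lower than in PBS Sirpa+ DCs (95% counting interval 24.4 to 352), with an edgeR adjusted p of 0.00079. Each PBS pDC library was under 3 reads, and the size of the fold is loose: the group means were 7.54 CPM in PBS pDCs and 352 CPM in PBS Sirpa+ DCs, and the log2 fold change ran from -7.10 to -4.81 over the alternatives. YG+ pDCs had 37 reads, 12.6-fold lower than PBS Sirpa+ DCs (counting interval 8.92 to 18.3, edgeR adjusted p = 0.00266). Between YG+ pDCs and PBS pDCs the log2 fold change was 2.38 (SE 0.76, edgeR adjusted p = 0.315). The counting intervals cover the counting of reads only. Both calls held under all 16 alternative settings.

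Among the transcription factors, Irf8, known for its part in DC development and in class I gene induction, rose in pDCs. It had 1117 and 1559 CPM in YG+ pDCs, 1199 and 1678 in PBS pDCs, and 262 and 335 in PBS Sirpa+ DCs. Its log2 fold change was 2.26 (SE 0.45, edgeR adjusted p = 0.00942) for PBS pDCs over PBS Sirpa+ DCs and 2.16 (SE 0.45, edgeR adjusted p = 0.0155) for YG+ pDCs over PBS Sirpa+ DCs. Relb, an NF-kB subunit also counted among mature DC markers, fell in pDCs, with 81.5 and 91.3 CPM in YG+ pDCs, 51.0 and 109 in PBS pDCs, and 279 and 255 in PBS Sirpa+ DCs. Its log2 fold change was -1.66 for PBS pDCs (SE 0.45, edgeR adjusted p = 0.0374) and -1.63 for YG+ pDCs (SE 0.43, edgeR adjusted p = 0.0458), both over PBS Sirpa+ DCs. For YG+ pDCs both genes lost the call whenever a YG+ pDC or PBS Sirpa+ DC library was left out (adjusted p up to 0.255 for Irf8 and 0.398 for Relb), and Relb also with totals only.

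The other 3 calls were for PBS pDCs over PBS Sirpa+ DCs. Jak2, a kinase of the interferon gamma receptor, had 295 and 209 CPM in YG+ pDCs, 76.5 and 174 in PBS pDCs, and 567 and 678 in PBS Sirpa+ DCs, a log2 fold change of -2.26 for PBS pDCs over PBS Sirpa+ DCs (edgeR adjusted p = 0.0140). Socs3, an inhibitor of cytokine signalling, had 170.0 and 154 CPM in YG+ pDCs, 89.3 and 125 in PBS pDCs, and 343 and 363 in PBS Sirpa+ DCs (for PBS pDCs over PBS Sirpa+ DCs, log2 fold change -1.69, edgeR adjusted p = 0.0245). Wdfy4, a gene known to be needed for cross-presentation in cDC1s, had 599.8 and 573 CPM in YG+ pDCs, 281 and 495 in PBS pDCs, and 1324 and 1254 in PBS Sirpa+ DCs (for PBS pDCs over PBS Sirpa+ DCs, log2 fold change -1.72, edgeR adjusted p = 0.0288). None of the 3 passed for YG+ pDCs over PBS Sirpa+ DCs with all 6 libraries in the fit, but all 3 did in the fit of the 4 libraries compared and when either PBS pDC library was left out. For YG+ pDCs over PBS pDCs the log2 fold change was 0.95 for Jak2 (edgeR adjusted p = 0.475). Without either PBS Sirpa+ DC library only H2-M2 of the lists remained called in PBS pDCs over PBS Sirpa+ DCs, so the calls of Irf8, Relb, Jak2, Socs3 and Wdfy4 there needed both. Relb, Socs3 and Wdfy4 also lost that call in the fit of 4 libraries and without either YG+ pDC library, and Relb with totals only.

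Several genes of the lists came close to the threshold without passing it with all 6 libraries in edgeR's fit. Psme2, an interferon-inducible subunit of the PA28 proteasome activator, had 77.3 and 76.9 CPM in YG+ pDCs, 95.7 and 85.6 in PBS pDCs, and 161 and 209 in PBS Sirpa+ DCs. All 4 pDC libraries lay below both PBS Sirpa+ DC libraries (log2 fold change -1.27 for YG+ pDCs, edgeR adjusted p = 0.0785, and -1.05 for PBS pDCs, edgeR adjusted p = 0.141). The YG+ pDC value passed under 3 of the 16 alternatives, the fit of 4 libraries and those without either PBS pDC library. Rab43, a small GTPase linked to cross-presentation, had 152 and 159 CPM in YG+ pDCs, 108 and 150.4 in PBS pDCs, and 300.4 and 407 in PBS Sirpa+ DCs, with a log2 fold change of -1.43 for PBS pDCs over PBS Sirpa+ DCs (edgeR adjusted p = 0.0504). It passed there under 5 of the 16 alternatives, limma-voom and the replicate block among them, and in YG+ pDCs over PBS Sirpa+ DCs under 3. Fcgrt, the heavy chain of the neonatal Fc receptor, which pairs with B2m, had 89.9 and 66.2 CPM in YG+ pDCs, 44.6 and 37.0 in PBS pDCs, and 114 and 102 in PBS Sirpa+ DCs (log2 fold change -1.42 for PBS pDCs over PBS Sirpa+ DCs, edgeR adjusted p = 0.0738). Like B2m, Fcgrt was lowest in both PBS pDC libraries. Nfyb, a subunit of the NF-Y factor that binds CCAAT, went the other way, with 23.9 and 25.1 CPM in YG+ pDCs, 51.0 and 34.7 in PBS pDCs, and 8.46 and 9.97 in PBS Sirpa+ DCs, on 2 and 5 reads in PBS Sirpa+ DCs (log2 fold change 2.09 for PBS pDCs over PBS Sirpa+ DCs, edgeR adjusted p = 0.0762). Fcgrt and Nfyb passed under 0 of the 16 alternatives.

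Genes of the lists went both ways in PBS pDC replicate 1, the library with the fewest reads. Canx had 121 CPM there against 354 in PBS pDC replicate 2, Pdia3 147 against 428, and Hspa5 459 against 914. Npepps had 6.38 against 67.1 CPM, on 1 read in replicate 1. Tapbpl, H2-T24 and Rfxank instead stood high there. Tapbpl, a relative of tapasin that edits the bound peptide, had 71.6 and 82.3 CPM in YG+ pDCs, 383 and 123 in PBS pDCs, and 114 and 87.7 in PBS Sirpa+ DCs. The nonclassical heavy chain H2-T24 had 225 and 329 CPM in YG+ pDCs, 938 and 326 in PBS pDCs, and 381 and 209 in PBS Sirpa+ DCs. Rfxank, a subunit of the RFX complex of MHC promoters, had 94.1 and 119.9 CPM in YG+ pDCs, 523 and 194 in PBS pDCs, and 220.0 and 104 in PBS Sirpa+ DCs, and 33.8% of its exon length lies opposite another gene. With all 6 libraries, edgeR called none of the 3 between the pDC groups, and DESeq2 called Rfxank. With PBS pDC replicate 2 left out, 7 of 100 tested genes of the lists were called for YG+ pDCs over PBS pDCs, these 3 among them, where 9.16% of all genes were called.

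**Figure D4:**
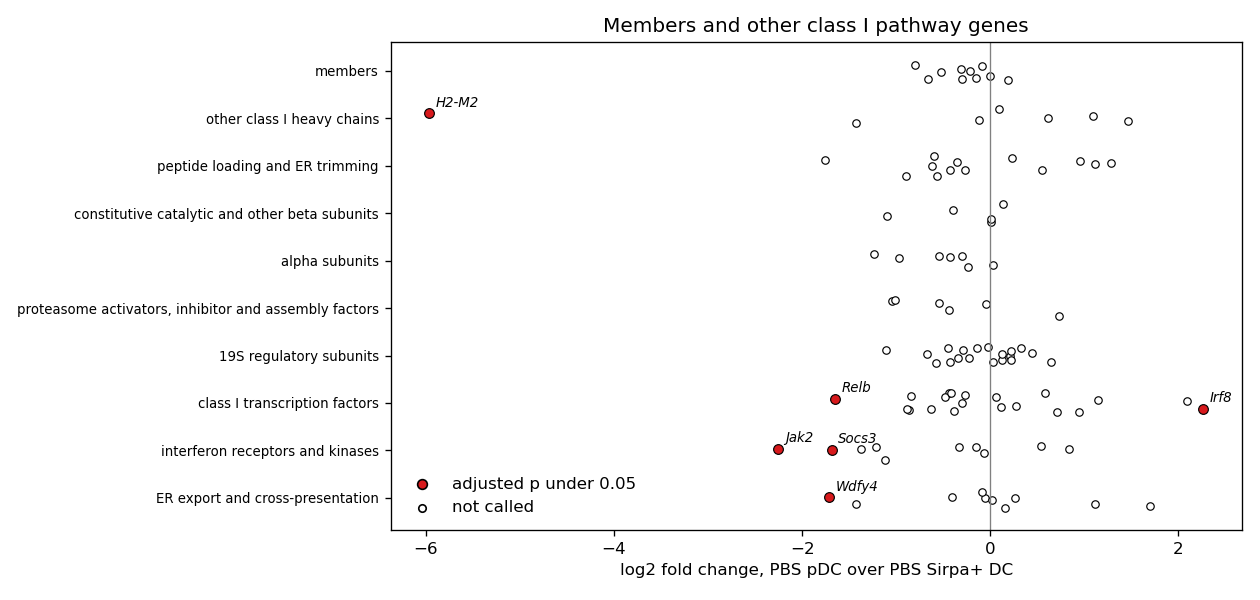
Log2 fold change of PBS pDCs over PBS Sirpa+ DCs for the 10 genes and for the tested genes of the 9 other class I lists, 1 dot per gene, red where the edgeR adjusted p is under 0.05. The 10 genes lie between -0.80 and 0.19, and H2-M2 at -5.96 is the farthest dot from 0.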

How the data were processed

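RNA was measured in 6 libraries of sorted thymic DCs, 2 per group. Per the labels' protocols, a BD FACSAria III sorted the cells, TRIzol served for RNA extraction, and 5 ng of RNA per sample entered the Ovation SoLo RNA-Seq Mouse kit. The labels give 1 batch. Each deposited file holds the authors' raw counts, 1 whole number of reads per gene symbol. The submitters' processing notes name bcl2fastq 2.17 and mm10, while for the aligner, counter, annotation and strand setting the sources used here give nothing. In each file 5 summary lines name no gene. These make up 97.7% to 99.5% of the records, and neither library sizes nor tests include them.

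Genes were filtered with filterByExpr (8141 kept), scaled by TMM (factors 0.924 to 1.09) and tested with edgeR 4.0.16 in R 4.3.3, with 6 libraries in 1 fit of group means. The biological coefficient of variation was 32.9%. Intervals at 95% used 8.20 prior and 3 residual degrees of freedom. Replicates differed beyond counting noise (chi-square per degree of freedom 2.52 for YG+ pDCs, 9.20 for PBS pDCs and 4.70 for PBS Sirpa+ DCs), and each was kept as a library of its own, which does not tell whether they are separate animals. The fit was also run on simulated counts with large changes and the same spread in all groups. That run does not bear on changes as small as those described above, nor on the wider spread of PBS pDCs. Of 23420 symbols, 21777 (93.0%) matched GENCODE M21, which gave positions and exon lengths. Promoter windows are RefSeq's (GRCm38.p6).

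The 10 genes, the lists and the tests were chosen with earlier results of these data known. Named genes are the 10, the 5 most alike in pattern, and gate checks. From each list, up to 4 with the smallest p for PBS pDCs over PBS Sirpa+ DCs are named. For YG+ pDCs over PBS pDCs up to 2 are named. Canx, Pdia3, Hspa5 and Npepps were added after the values were seen. The alternatives were other scalings, DESeq2 1.42.0, limma-voom (limma 3.58.1), no filter or one at 10 CPM, the 4 libraries compared, a replicate block, removal of Rn45s, and each library left out in turn.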

Additional observations from a re-analysis of the deposited data

How the results depend on the processing

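The count of the 10 genes called stayed at 0 in all 3 comparisons under all 16 alternatives, replicate block included. The nearest to the threshold was Nlrc5 for PBS pDCs over PBS Sirpa+ DCs without PBS pDC replicate 2 (log2 fold change -1.30, edgeR adjusted p = 0.0641), where the single PBS pDC library is assumed to vary like the other groups. Equal sample numbers are not said to pair libraries, and deviations of same-numbered libraries correlated at -0.121 (YG+ and PBS pDCs), -0.099 (YG+ pDCs and PBS Sirpa+ DCs) and 0.298 (PBS pDCs and PBS Sirpa+ DCs). With a replicate block, 0, 942 and 635 genes were called for YG+ pDCs over PBS pDCs, PBS pDCs over PBS Sirpa+ DCs and YG+ pDCs over PBS Sirpa+ DCs. Without the block 0, 931 and 583 were called. For YG+ pDCs over PBS pDCs, no filter gave 141 calls, DESeq2 111 and leaving out a library 0 to 870 (870 without PBS pDC replicate 2). For PBS pDCs over PBS Sirpa+ DCs, the fit of 4 libraries gave 580 and leaving out a library 214 to 1297. In YG+ pDCs over PBS Sirpa+ DCs, no filter gave 894, the fit of 4 libraries 1480 and leaving out a library 69 to 1487. Calls among the 97 other pathway genes were 1 with DESeq2 and 0 to 7 with a library left out for YG+ pDCs over PBS pDCs. For PBS pDCs over PBS Sirpa+ DCs they were 3 with 4 libraries and 1 to 12 with a library left out. They were 12 for YG+ pDCs over PBS Sirpa+ DCs with 4 libraries and 1 to 11 with a library left out.

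The log2 fold changes that turned sign were all uncalled. A change of scaling moves all genes alike: the median of all genes shifted by -0.083 with DESeq2's size factors and 0.084 with totals only for YG+ pDCs over PBS Sirpa+ DCs, and by 0.042 with upper quartiles and 0.075 with totals only for PBS pDCs over PBS Sirpa+ DCs. In YG+ pDCs over PBS pDCs, Tap2 (main value -0.0043) was 0.057 with no filter, 0.0019 with limma-voom, 0.076 with the replicate block and -0.32 to 0.56 with a library left out. Tapbp was 0.021 with totals only, 0.058 with no filter and -0.15 to 0.14 with a library left out. With a library left out, H2-D1 ran from -0.37 to 0.12, Psmb8 from -0.66 to 0.36 and Psmb9 from -0.38 to 0.20. For PBS pDCs over PBS Sirpa+ DCs, H2-D1 (main value -0.0025) was 6.6e-04 with DESeq2's size factors, 0.043 with upper quartiles, 0.046 with totals only, 0.016 with the 10 CPM filter, 0.010 with 4 libraries and -0.15 to 0.11 with a library left out. With a library left out, Tap2 ran from -0.90 to 0.095, Psmb8 from -0.87 to 0.15, Psmb9 from -0.54 to 0.048 and Psmb10 from -0.77 to 0.40. In YG+ pDCs over PBS Sirpa+ DCs, H2-K1 (main value 0.0064) was -0.076 with DESeq2's size factors, -0.076 with DESeq2, -0.0082 with 4 libraries, -0.033 without Rn45s and -0.052 to 0.034 with a library left out. Tap1 was 0.010 with totals only and -0.24 to 0.092 with a library left out. With a library left out, H2-D1 ran from -0.41 to 0.079, B2m from -0.43 to 0.30 and Tap2 from -0.60 to 0.061. The log2 ratio of Psmb8 over Psmb5, PBS pDCs minus PBS Sirpa+ DCs, was 0.55 with a pseudocount of 1, 0.073 with 5 and 0.16 to 0.95 with a library left out, on 1 to 13 reads of Psmb5. Beyond the fewer libraries or the other genes that a setting itself brings in, the cause was not tested. Depth was thinnest for Psmb9, with 10 to 53 reads a library.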
